A study of Mus musculus with 36 samples.

Results

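The S100 calcium-binding family was followed through 10 of its genes, S100b, S100a1, S100a4, S100a6, S100a8, S100a9, S100a10, S100a11, S100a13 and S100a16, taken as the rows of the deposited count table whose Ensembl identifiers carry these symbols. The table lists 52636 genes. All 10 members are in it and all 10 passed the filter on low counts over the 3 cell types, as did 15330 genes in all. S100a8 did not pass it in any fit of only 2 cell types, and S100a9 passed in that of S100β-GFP+ and NG2-dsRed+ cells only. S100 proteins are small calcium sensors of the EF-hand kind that mostly work as dimers: calcium opens a binding face that docks onto annexins, cytoskeletal proteins, kinases and other partners, and some members are released from cells and bind receptors such as RAGE. S100B is a classical marker of Schwann cells and other glia, S100A1 is known from striated muscle, S100A4, S100A6, S100A10 and S100A11 from fibroblasts, macrophages and other motile cells, and S100A8 and S100A9 together form calprotectin, an abundant protein of neutrophils.

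RNA was measured by RNA-seq after FACS of dissociated diaphragm, pectoralis, forelimb and hindlimb muscle of mice that carry both the S100β-GFP and the NG2-dsRed transgenes. GFP is driven by the S100b promoter and dsRed by the promoter of Cspg4, the gene of NG2, so that the sort gave perisynaptic Schwann cells (PSCs, S100β-GFP+;NG2-dsRed+), S100β-GFP+ cells and NG2-dsRed+ cells, each replicate from 1 mouse. No cells were treated, and all 3 cell types come from the same genotype. The labels give a youngest age of postnatal day 15 and an upper age that differs between libraries, from day 21 to day 46. That upper age climbs with the library number while the methods state days 15 to 21, so it was not used here. Of 36 labelled libraries, 27 have a column, 10 of NG2-dsRed+ cells, 9 of PSCs and 8 of S100β-GFP+ cells, and the other 9 were not analysed here. After removing failed samples, the methods keep fewer S100β-GFP+ replicates than have a column and do not name those removed. A library that the authors set aside may therefore be among the 8 used here. Because the gates themselves used the S100b promoter, S100b in either GFP+ cell type against NG2-dsRed+ cells is described without a test. In sorted bulk RNA, fewer cells of a type and less RNA per cell cannot be told apart.

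The counts on genes ranged from 5221655 to 9592875 per library. The genes Lars2, Gm23935 and Gm15564 together took 3.64% to 36.6% of the counts in PSCs, 19.5% to 39.1% among S100β-GFP+ cells and 12.5% to 40.0% among NG2-dsRed+ cells. Sox10, a defining marker of Schwann cells, lay between 379 and 703 counts per 1000000 counts (CPM, scaled by the trimmed mean of M values, TMM) in PSCs but between 5.57 and 38.8 in S100β-GFP+ cells. The S100β-GFP+ libraries also held the fibroblast gene Col1a1 at 6027 to 11980 CPM and the macrophage gene Lyz2 at 868 to 8898 CPM, and the NG2-dsRed+ libraries held the pericyte gene Rgs5 at 2775 to 7921 CPM and the endothelial gene Cdh5 at 650 to 1143 CPM. The S100β-GFP+ and NG2-dsRed+ groups are therefore named by their gates and not as single cell types. PSC library 31 stood apart with 3859 CPM of the cartilage gene Col2a1, against a PSC median of 1.97. S100β-GFP+ libraries 14, 17 and 22 also stood apart, with endothelial markers summing to 743, 2251 and 1186 CPM against 122 to 180 in the other 5, and the lowest sums of macrophage markers in that cell type (3772, 2494 and 1223 CPM).

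Most of the family sits together in the genome. On mouse chromosome 3 (GRCm38), 7 members lie within 185 kb, from 90511034 to 90695721, in the order S100a1, S100a13, S100a16, S100a4, S100a6, S100a8 and S100a9. S100a11 and S100a10 follow 2.82 Mb further on, 28.8 kb apart, and S100b alone is on chromosome 10, from 76253853 to 76261159 on the forward strand. S100b overlaps Dip2a, a gene of the opposite strand with which it shares no exon base. S100a1 on the reverse strand and S100a13 on the forward strand begin 43 bases apart in opposite directions, so that the same stretch holds the start of both.

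Start regions are shown for the members on which the results below turn. They are taken from RefSeq on GRCm38.p6, run from 250 bases before to 50 bases after the annotated start, and read 5′ to 3′ on the gene's own strand. Windows were given for 9 of the 10 members (S100a16 has 2), 10 windows in all. Capitals mark matches, on either strand, to TATAAA (the core promoter box), to ACAANG (SOX factors), to TGANTCA (the AP-1 dimer) and to TTNNGNAA (C/EBP factors), which occur in 13.6%, 41.2%, 7.81% and 40.7% of the 32851 windows of this length.

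S100b, chr10:76253586-76253885, forward strand, the gene whose promoter drives the GFP of the sort: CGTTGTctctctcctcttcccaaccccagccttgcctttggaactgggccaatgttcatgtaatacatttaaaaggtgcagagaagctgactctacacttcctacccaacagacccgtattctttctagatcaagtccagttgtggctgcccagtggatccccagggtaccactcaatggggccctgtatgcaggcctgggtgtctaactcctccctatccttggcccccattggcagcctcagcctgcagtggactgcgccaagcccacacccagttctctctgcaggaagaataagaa

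S100a13, chr3:90514185-90514484, forward strand, which also holds the start of S100a1: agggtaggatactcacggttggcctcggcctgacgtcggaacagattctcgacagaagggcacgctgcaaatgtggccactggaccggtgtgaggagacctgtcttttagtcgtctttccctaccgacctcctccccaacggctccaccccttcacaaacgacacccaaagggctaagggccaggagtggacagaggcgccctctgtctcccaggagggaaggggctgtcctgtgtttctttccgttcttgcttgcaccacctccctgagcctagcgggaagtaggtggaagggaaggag

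S100a4, chr3:90603520-90603819, forward strand, the member with the widest ratio between PSC libraries among those with counts in every library: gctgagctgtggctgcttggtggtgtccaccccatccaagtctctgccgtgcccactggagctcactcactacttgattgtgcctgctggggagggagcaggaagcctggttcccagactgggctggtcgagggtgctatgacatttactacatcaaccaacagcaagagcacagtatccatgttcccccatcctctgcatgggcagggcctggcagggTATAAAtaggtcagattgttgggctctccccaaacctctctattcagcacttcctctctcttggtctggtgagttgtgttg

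S100a11, chr3:93520246-93520545, forward strand, the member called in all 3 comparisons: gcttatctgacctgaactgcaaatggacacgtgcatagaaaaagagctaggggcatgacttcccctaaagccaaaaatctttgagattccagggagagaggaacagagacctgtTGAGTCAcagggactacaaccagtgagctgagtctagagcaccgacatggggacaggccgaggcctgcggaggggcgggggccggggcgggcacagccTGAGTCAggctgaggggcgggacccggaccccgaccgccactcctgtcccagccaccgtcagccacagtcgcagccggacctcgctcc

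S100a8, chr3:90668821-90669120, forward strand: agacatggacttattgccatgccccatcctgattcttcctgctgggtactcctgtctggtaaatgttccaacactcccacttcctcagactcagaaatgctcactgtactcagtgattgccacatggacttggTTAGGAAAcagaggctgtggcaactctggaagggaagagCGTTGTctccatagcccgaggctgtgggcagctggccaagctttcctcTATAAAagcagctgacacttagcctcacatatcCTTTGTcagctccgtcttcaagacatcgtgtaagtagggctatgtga

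S100a9, chr3:90695672-90695971, reverse strand: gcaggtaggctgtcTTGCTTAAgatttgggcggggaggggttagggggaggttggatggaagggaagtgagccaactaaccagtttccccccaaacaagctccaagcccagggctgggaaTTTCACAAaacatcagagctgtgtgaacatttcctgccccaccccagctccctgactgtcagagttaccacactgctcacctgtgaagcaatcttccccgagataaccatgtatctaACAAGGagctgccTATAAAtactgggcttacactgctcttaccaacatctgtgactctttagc

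The S100b window held a single match, ACAANG at its first base, position -250 from the start. The shared S100a1 and S100a13 stretch held no match to any of the 4 motifs. TATAAA was found in 3 of the 10 member windows, at -31 in S100a4, at -30 in S100a8 and at the annotated start of S100a9 itself. Both genes of calprotectin had TTNNGNAA, which no other member window held. S100a11 had TGANTCA at -136 and again at -38, and the only other member window with it belonged to S100a16. A match says only that these letters stand in the window.

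The members differed widely in level, and 3 of them led in every cell type. Levels of different genes are compared per length, as CPM per kb of exon. In S100β-GFP+ cells S100a11 stood at 726 ± 215 CPM per kb (SD, n = 8), S100a6 at 537 ± 290 and S100a10 at 428 ± 127. The same genes led NG2-dsRed+ cells, with 427 ± 95.2 for S100a11, 370 ± 254 for S100a6 and 172 ± 56.6 for S100a10 (n = 10). These 3 neighbours overlapped within their SDs in S100β-GFP+ cells, while in NG2-dsRed+ cells S100a10 lay below S100a11 by more than both SDs.

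**Figure D1:**
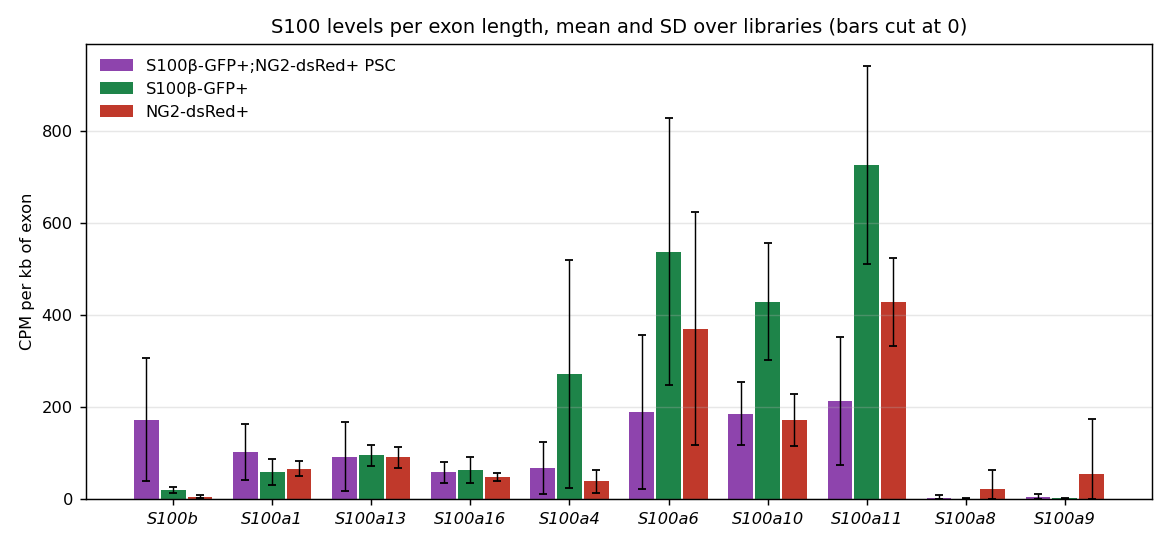
Level of each member per kb of exon (y axis, CPM per kb) in the 3 cell types, bars showing the mean and lines the SD over 9, 8 and 10 libraries. S100a11, S100a6 and S100a10 are the tallest in each cell type, and S100b is close to them only in PSCs.

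In PSCs the leading members stood close together, with S100a11 at 212 ± 139 CPM per kb (n = 9), S100a6 at 188 ± 167, S100a10 at 185 ± 67.7 and S100b at 172 ± 134, an order in which no neighbours differ beyond their spread. S100b was the member whose rank moved most, from 4 in PSCs to 8 among S100β-GFP+ cells (19.8 ± 6.79) and 10 among NG2-dsRed+ cells (4.40 ± 3.30). With the length of the principal transcript in place of all exons, S100a6 came first in every cell type, at 352, 1004 and 692 CPM per kb in the 3 cell types in that order (PSCs, then S100β-GFP+, then NG2-dsRed+ cells). Summed over the 10 members, the median library held 832 CPM in PSCs, 1900 among S100β-GFP+ cells and 1100 among NG2-dsRed+ cells.

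The first question of the design is how PSCs differ from other GFP+ cells, and 6 of the 10 members differed between them. S100b and S100a1 were higher in PSCs and S100a4, S100a6, S100a10 and S100a11 lower, beside 47% of all genes tested that were called in this comparison (22.9% higher and 24.1% lower). The median log2 difference over the members was -0.08, against 0.04 over all genes. Against NG2-dsRed+ cells, 3 of the 9 members tested were called in PSCs, all lower (S100a8, S100a9 and S100a11), where 44% of all genes were called (23.1% lower), and with only these groups in the fit S100a11 alone was called. Between S100β-GFP+ and NG2-dsRed+ cells 5 of 9 were called, S100a4, S100a10 and S100a11 higher and S100a8 and S100a9 lower in S100β-GFP+ cells, with 33.3% of all genes called (18.1% higher and 15.2% lower). In both comparisons the calls of S100a8 and S100a9 are a description only. These genes passed the filter through few libraries, mostly of NG2-dsRed+ cells where they are high, so the counts that include them are not read against the shares of all genes.

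**Figure D2:**
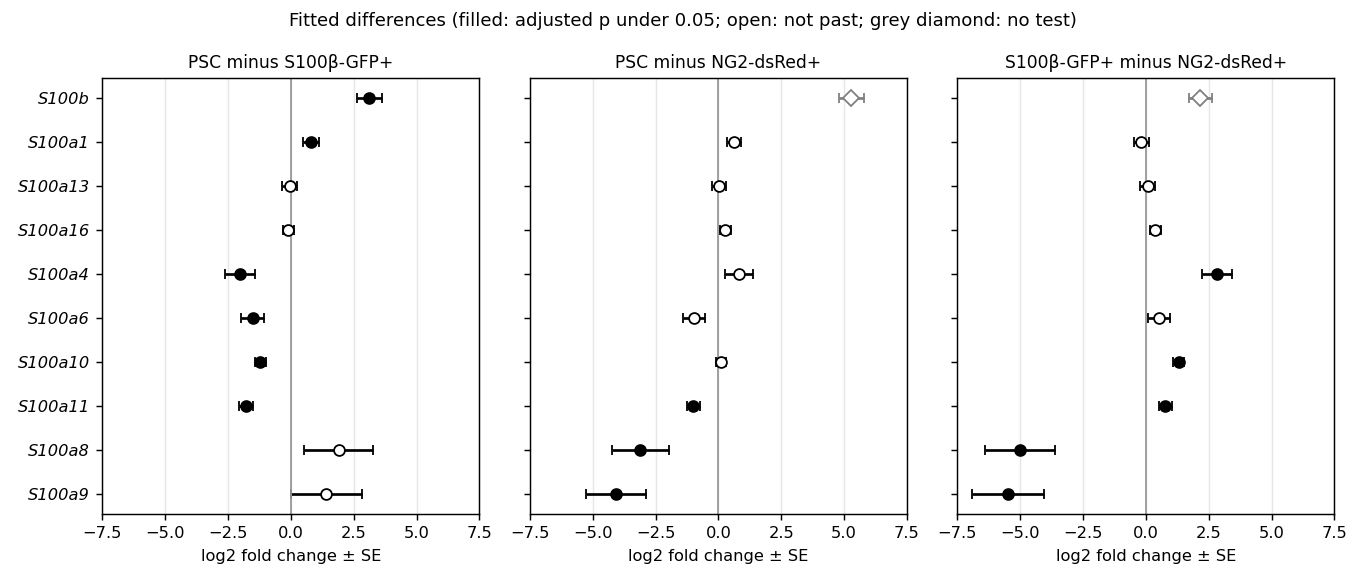
Fitted log2 fold change ± SE (x axis) of each member (y axis) in the 3 comparisons from one edgeR fit. Filled points have an adjusted p under 0.05, open points do not, and grey diamonds mark S100b against NG2-dsRed+ cells, which was not tested. S100a4, S100a6, S100a10 and S100a11 lie left of 0 in PSCs against S100β-GFP+ cells, and S100a8 and S100a9 have the widest errors.

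S100b encodes the glial member of the family. Its level in PSCs ran from 57.0 to 566 CPM with a median of 160, in S100β-GFP+ cells from 9.88 to 40.9 with a median of 30.5, and in NG2-dsRed+ cells from 1.23 to 17.8, the median being 5.43. Every PSC library stood above every S100β-GFP+ library, and the libraries of these cell types did not overlap for 15.5% of all genes. Of the 8 S100β-GFP+ libraries, 7 stood above every NG2-dsRed+ library. PSCs exceeded S100β-GFP+ cells by 3.12 ± 0.49 on the log2 scale (SE; adjusted p = 5.43e-06, edgeR's quasi-likelihood test with Benjamini-Hochberg adjustment, as for all adjusted p-values of differences here), from 255 ± 198 against 29.4 ± 10.1 CPM (SD). The difference was 1.67 (adjusted p = 5.24e-06) with the share of the Lars2 set as a term, 3.44 (3.30e-05) among libraries with a share under 25% and 1.75 (0.00553) among those over 25%. As a description, PSCs stood 5.28 and S100β-GFP+ cells 2.16 above NG2-dsRed+ cells on the log2 scale.

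Cells of other types can also use S100b, and their markers were set beside it. In PSC library 31, the one rich in Col2a1, S100b was 67.8 CPM, the second lowest of the PSCs. The share of the Lars2 set in that library was 31.6%. The 4 PSC libraries with a share over 25% had 57.0 to 139 CPM of S100b, against 160 to 566 in the other 5. Cartilage cells and the share therefore cannot be told apart in library 31. Melanocyte markers summed to 44.3 to 180 CPM in PSCs, 22.0 to 48.3 among S100β-GFP+ cells and 9.92 to 17.7 among NG2-dsRed+ cells, with 3 of the 4 markers tested called higher in PSCs than in NG2-dsRed+ cells and 2 higher than in S100β-GFP+ cells. Of all genes tested, 20.9% and 22.9% were called higher in PSCs in these comparisons. Of the pigment genes, Dct had 6.57 to 119 CPM in PSCs and Tyrp1 0.350 to 37.7 (median 19.5), while Tyr and Mlana were at 0 in 8 of the 9 libraries. Adipocyte markers summed to 0.101 to 51.5 CPM in PSCs and 2.89 to 106 in S100β-GFP+ cells. The part of such cells in the S100b levels was not tested.

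S100a1, the member known from heart and skeletal muscle, where it binds the ryanodine receptor and the calcium pump SERCA, had 28.0 to 149 CPM in PSCs (median 67.9), 24.4 to 81.4 among S100β-GFP+ cells (31.6) and 26.6 to 63.1 among NG2-dsRed+ cells (47.3). The cell types overlapped, with 4 of 9 PSC libraries above every S100β-GFP+ library. PSCs were higher than S100β-GFP+ cells by 0.80 ± 0.30 (adjusted p = 0.0303), but the call was lost when PSC library 20 or any of S100β-GFP+ libraries 1, 14, 17, 22 and 33 was left out (adjusted p 0.0526 to 0.0803) and with the share of the Lars2 set as a term (0.34, adjusted p = 0.311). It was also lost in limma-voom (0.114), with only the groups compared (0.0721), among libraries with a share under 25% (0.339), without S100β-GFP+ libraries 14, 17 and 22 together (0.166) and where a fold of 2 was required. Against NG2-dsRed+ cells the difference was 0.63 ± 0.28 (adjusted p = 0.0737), and it passed the threshold without any 1 of PSC libraries 6, 23, 31 and 34 and NG2-dsRed+ libraries 2 and 28 (adjusted p 0.0216 to 0.0447). It also passed in the DESeq2 Wald test (adjusted p = 0.0460). Muscle fibre markers summed to 142 to 1445 CPM in PSCs, 165 to 558 among S100β-GFP+ cells and 144 to 556 among NG2-dsRed+ cells, and their part was not tested.

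S100a13, which is known for its part in the unconventional release of FGF1, starts beside S100a1 and was called in none of the 3 comparisons. PSC libraries ran from 28.0 to 202 CPM (median 55.1), S100β-GFP+ libraries from 43.6 to 90.0 (65.1) and NG2-dsRed+ libraries from 36.5 to 88.3 (69.0). The fitted differences were -0.05 ± 0.29 for PSCs against S100β-GFP+ cells (adjusted p = 0.900), 0.01 ± 0.27 against NG2-dsRed+ cells (0.974) and 0.07 ± 0.28 between those (0.890). The 95% interval of the first was -0.62 to 0.51. With the share of the Lars2 set as a term, S100a13 was called lower in PSCs, at -0.72 against the S100β-GFP+ cells (adjusted p = 0.0136) and -0.59 against NG2-dsRed+ cells (0.0322).

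S100a16, a member found in many tissues, had 55.9 to 176 CPM in PSCs (median 83.7), 50.1 to 182 among S100β-GFP+ cells (80.6) and 58.2 to 96.2 among NG2-dsRed+ cells (76.9). Its differences were -0.10 ± 0.23 (adjusted p = 0.742), 0.27 ± 0.22 (0.340) and 0.37 ± 0.22 (0.221) in the 3 comparisons, in the order used above. With the share as a term PSCs were called higher than NG2-dsRed+ cells, by 0.55 (0.0135).

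**Figure D3:**
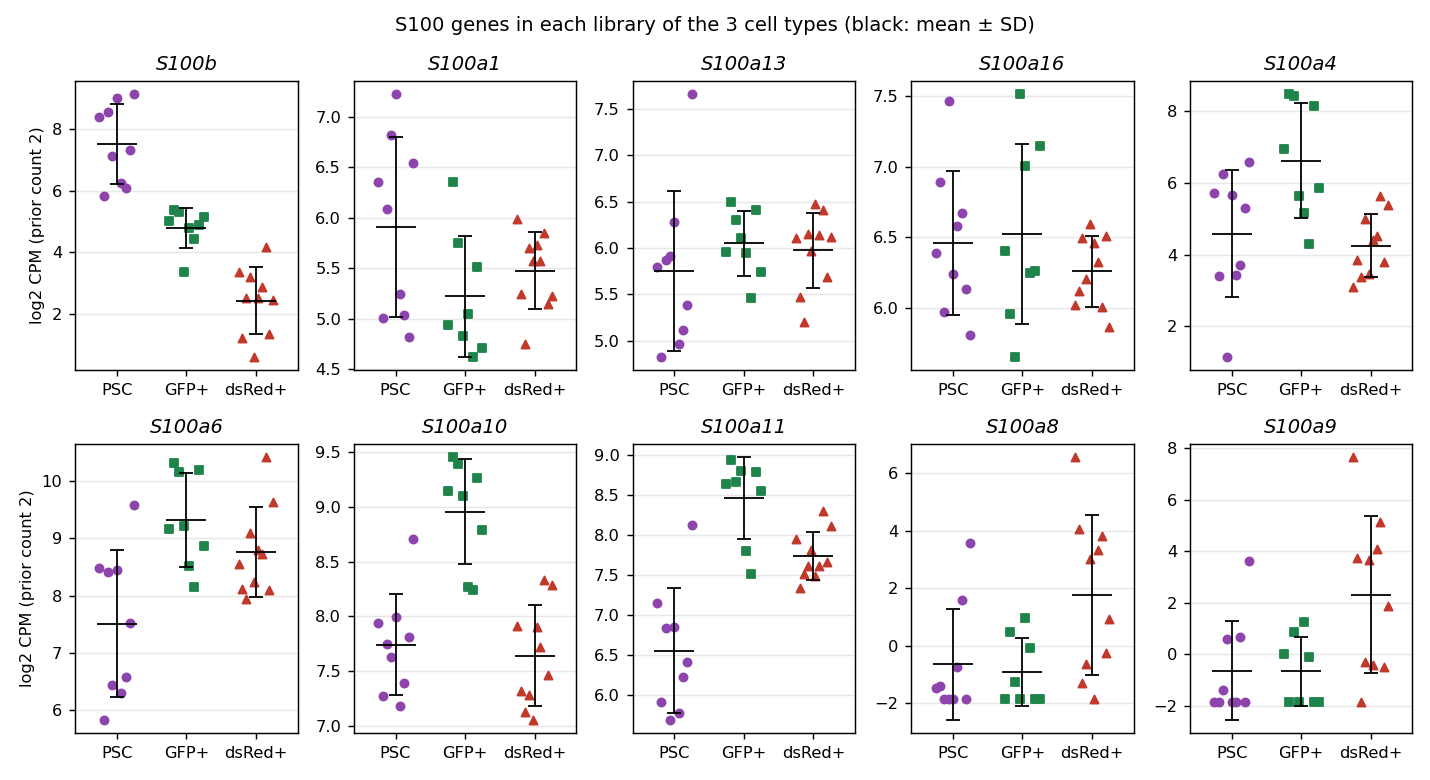
log2 CPM with a prior count of 2 (y axis) of the 10 members in each library of the 3 cell types (x axis, libraries in order of their number), with the mean and SD in black. The S100b libraries of PSCs and S100β-GFP+ cells do not overlap, S100a10 and S100a11 are highest in S100β-GFP+ cells, and PSC library 36 is the top PSC point of S100a6, S100a10, S100a11 and S100a13.

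S100a4, S100a6, S100a10 and S100a11 were the members low in PSCs. S100a4 binds the heavy chain of non-muscle myosin IIA. Its libraries spread widely, 49.8-fold between the lowest and highest PSC library, from 1.93 to 96.0 CPM in PSCs (median 39.6), from 19.4 to 357 among S100β-GFP+ cells (90.9) and from 8.23 to 49.9 among NG2-dsRed+ cells (17.5). PSCs were lower than S100β-GFP+ cells, at -2.03 ± 0.60 on the log2 scale (adjusted p = 0.00625), with 4 of 9 PSC libraries below every S100β-GFP+ library, and S100β-GFP+ cells were higher than NG2-dsRed+ cells by 2.83 ± 0.59 (0.000363). Between PSCs and NG2-dsRed+ cells the difference was 0.81 ± 0.56 (0.255), and it was -0.62 (0.197) with the share of the Lars2 set as a term. S100a4 shares 302 of its 584 exon bases with Gm42674, a gene model of the same strand that is at 0 counts in every library, and the sources used here do not say how the counting treated reads on shared bases.

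S100a6, calcyclin, binds the ubiquitin-ligase partner CacyBP. It ran from 56.7 to 768 CPM in PSCs (median 183), from 284 to 1275 among S100β-GFP+ cells (585) and from 244 to 1375 among NG2-dsRed+ cells (399). The S100β-GFP+ range lay within that of NG2-dsRed+ cells, and 5 of 9 PSC libraries were below every library of either. PSCs were lower than S100β-GFP+ cells, at -1.51 ± 0.46 (adjusted p = 0.00740), and the difference from NG2-dsRed+ cells, -0.97 ± 0.43, missed the threshold (0.0690). It passed without PSC library 36 (-1.30, 0.0135), with the share as a term (-2.10, 2.53e-09), among libraries with a share over 25% (-2.16, 1.20e-05) and in limma-voom (-0.85, 0.0465). The difference between S100β-GFP+ and NG2-dsRed+ cells was 0.54 ± 0.44 (0.382), and it was past the threshold with the share as a term (0.74, 0.00232) and in limma-voom (0.92, 0.0327).

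S100a10, p11, forms a tetramer with annexin A2 that brings channels and plasminogen to the membrane, and it is the member that has lost the ability to bind calcium. Its level was 145 to 417 CPM in PSCs (median 215), 301 to 702 among S100β-GFP+ cells (556) and 133 to 322 among NG2-dsRed+ cells (193). Of the 9 PSC libraries, 8 were below every S100β-GFP+ library. PSCs were lower, at -1.21 ± 0.23 (adjusted p = 5.93e-05), than S100β-GFP+ cells, which were higher than NG2-dsRed+ cells by 1.31 ± 0.22 (2.13e-05). PSCs and NG2-dsRed+ cells differed by 0.10 ± 0.21 (0.725), with a 95% interval of -0.31 to 0.52.

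S100a11 binds annexin A1 and was the member called in every comparison. PSC libraries had 51.3 to 279 CPM (median 84.7), NG2-dsRed+ libraries 162 to 316 (199) and S100β-GFP+ libraries 183 to 492 (402). Of the 9 PSC libraries, 8 were below every library of either other cell type, and PSC library 36 was the exception. PSCs were lower than both other cell types, at -1.78 ± 0.27 against the S100β-GFP+ cells (adjusted p = 3.50e-06) and -1.01 ± 0.26 against NG2-dsRed+ cells (0.00200), and S100β-GFP+ cells were higher than NG2-dsRed+ cells by 0.77 ± 0.26 (0.0237), a call lost without S100β-GFP+ library 3 (0.0525). Transcripts of S100a11 share 41.1% of their words of 50 bases with the processed pseudogene Gm12854 and 23.4% with Gm7665, so that their reads cannot be told apart there. These copies had 3.42 ± 1.98 and 6.45 ± 3.72 CPM in PSCs, 11.8 ± 2.62 and 21.4 ± 9.17 in S100β-GFP+ cells and 7.70 ± 1.21 and 13.3 ± 3.55 in NG2-dsRed+ cells.

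The same comparison moved the markers of other cells. All 9 macrophage markers were called lower in PSCs than among the S100β-GFP+ cells, with sums of 37.1 to 571 CPM against 1223 to 11424, and so were 8 of 9 fibroblast markers, with sums of 540 to 1942 against 10934 to 23774. Of all genes tested, 24.1% were called lower in this comparison. None of the macrophage or fibroblast genes just named was at 0 in a S100β-GFP+ library. Macrophages and fibroblasts are known to express S100a4, S100a6, S100a10 and S100a11. Their part in these differences was not tested. Within the libraries with a share over 25% the 4 genes were lower in PSCs, at -2.66, -2.52, -1.38 and -2.43 on the log2 scale in the order S100a4, S100a6, S100a10 and S100a11, and within those under 25% at -2.36, -1.56, -1.27 and -1.59, all past the threshold.

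S100a8 and S100a9 were low or absent in most libraries and high in a few. In PSCs S100a8 had 0 counts in 4 of 9 libraries and 111 counts (11.7 CPM) in library 36, and S100a9 had 0 counts in 5 and 115 counts (12.1 CPM) in library 36. S100β-GFP+ libraries had at most 1.66 CPM of S100a8 and 2.13 of S100a9, with 4 of 8 at 0 for each. Among NG2-dsRed+ libraries S100a8 ran from 0 to 94.5 CPM (median 4.66) and S100a9 from 0 to 202 (7.92), and library 2 alone gave 666 of the 997 counts of S100a8 and 1425 of the 1963 of S100a9. NG2-dsRed+ libraries 7, 15, 26 and 28 had 7.71 to 16.5 CPM of S100a8 and 12.4 to 34.5 of S100a9, and the other 5 had at most 1.62 and 3.40.

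**Figure D4:**
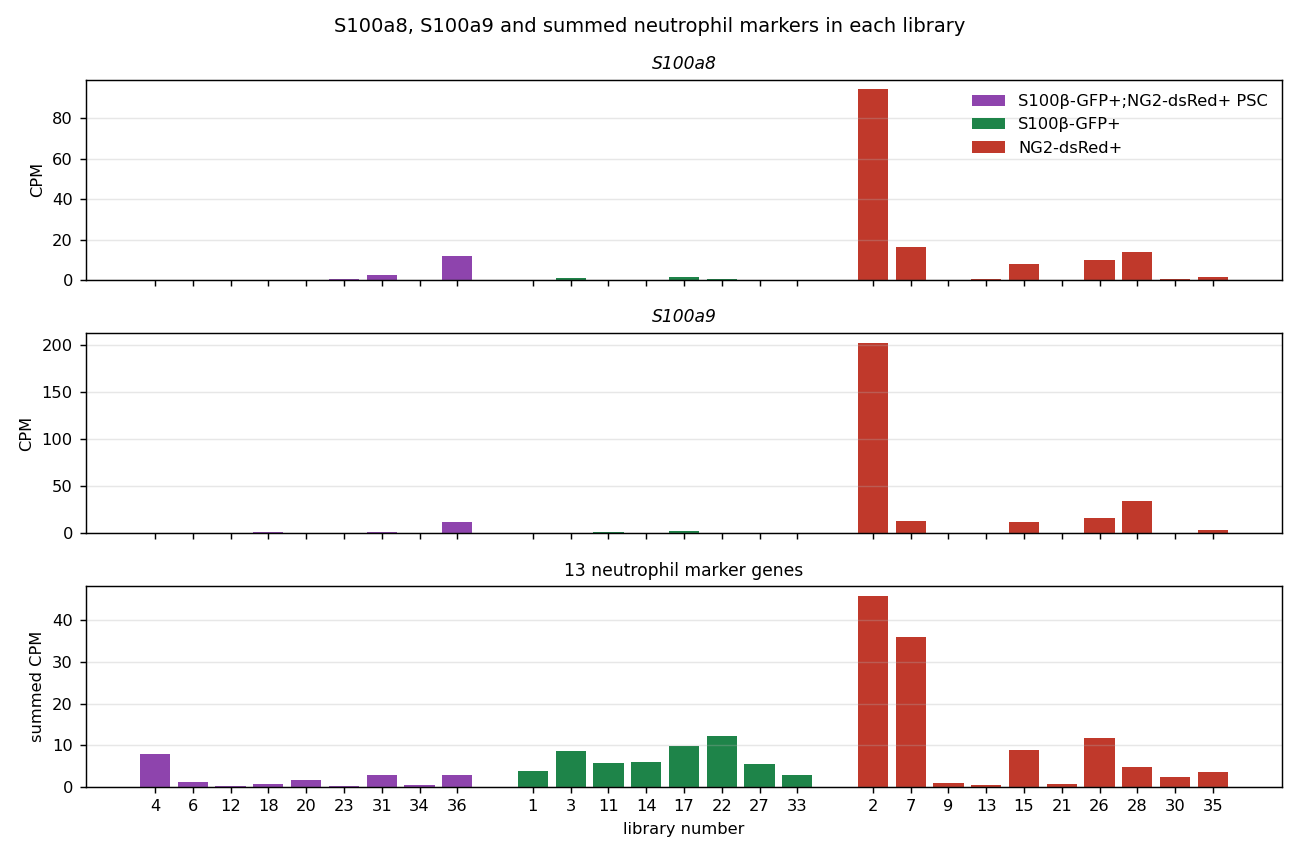
CPM of S100a8 and of S100a9 and the summed CPM of 13 neutrophil marker genes (y axes) in each library (x axis), coloured by cell type. NG2-dsRed+ library 2 is highest in all 3 panels, and PSC library 36 is the only PSC library over 3 CPM for S100a8 or S100a9.

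Both genes passed the filter on low counts through few libraries, mostly of NG2-dsRed+ cells where they are high, so the calls are given as a description. The fit put both genes lower in PSCs than in NG2-dsRed+ cells, S100a8 at -3.10 ± 1.13 (adjusted p = 0.0270) and S100a9 at -4.08 ± 1.20 (0.00627), and lower in S100β-GFP+ than in NG2-dsRed+ cells, at -5.00 ± 1.40 (0.00586) and -5.50 ± 1.43 (0.00318). Between PSCs and S100β-GFP+ cells the differences were 1.90 ± 1.37 (0.264) and 1.41 ± 1.40 (0.429). Few libraries carry these calls. Without NG2-dsRed+ library 2 S100a9 was no longer called in PSCs (-2.36, 0.0858), and without PSC library 36 its difference grew to -6.58. S100a8 did not pass the filter on low counts in 8 of the 27 fits that leave out a library, and in the other 19 the adjusted p of PSCs against NG2-dsRed+ cells lay between 0.0191 and 0.0515, over the threshold without PSC library 4 or 12. In limma-voom none of these calls held, with adjusted p of 0.0730 for S100a8 and 0.0657 for S100a9 in PSCs and 0.0824 and 0.171 in S100β-GFP+ cells, nor did they among the libraries with a share over 25% (0.0915 to 0.186). In the DESeq2 Wald test S100a8 was not called in PSCs against NG2-dsRed+ cells, while the other calls of this pair held.

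Neutrophil markers were read beside this pair. Of the 13 markers, 2 passed the filter on low counts. Their sum over all 13 was 0.104 to 7.81 CPM in PSCs, 2.89 to 12.2 among S100β-GFP+ cells and 0.534 to 45.8 among NG2-dsRed+ cells, with the highest value in NG2-dsRed+ library 2. The granule genes Ngp and Camp were at 0 in all 9 PSC libraries, library 36 included, which allows up to 0.0380 CPM over these libraries by counting error (3 counts), and reached 9.92 and 7.08 CPM in NG2-dsRed+ library 7, while Retnlg reached 17.9 in NG2-dsRed+ library 2. In PSC library 36 the 13 markers summed to 2.95 CPM, against a PSC median of 1.11. Stfa2 had 1.89 CPM there and was at 0 in 8 of 9 PSC libraries. The highest PSC values of Mmp8 (0.632 CPM) and Elane (0.105 CPM) were also in library 36. Other markers peaked elsewhere among PSCs, with Lcn2 highest in library 4 (7.65 CPM) and Ltf, Retnlg, Mpo and Csf3r in library 31. Cxcr2 peaked in library 34, Mmp9 in library 6 and Ly6g in library 12. PSC library 4 had the highest PSC sum, 7.81 CPM, with 1 count of S100a8 and 0 of S100a9. Ly6g was at 0 in 8 of 9 PSC, 8 of 8 S100β-GFP+ and 8 of 10 NG2-dsRed+ libraries. The part of neutrophils in the calprotectin levels was not tested.

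The other S100 genes of the table, S100a2, S100a3, S100a5, S100a7a, S100a14, S100g and S100z, were at the edge of detection, and 0 of the 7 passed the filter. S100a3 was the most abundant, with 1.46 ± 1.01 CPM in S100β-GFP+ cells, 0.565 ± 0.545 in PSCs and 0.169 ± 0.141 in NG2-dsRed+ cells. S100z had 1 count in all S100β-GFP+ libraries together and 0 in PSCs and in NG2-dsRed+ cells, which allows up to 0.0380 and 0.0450 CPM over these groups by counting error (3 counts).

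Within a cell type some members differed between libraries in which Lars2, Gm23935 and Gm15564 took a low and a high share of the counts, a split looked for after the values were seen. In PSCs the shares fall into 5 libraries at 3.64% to 17.8% and 4 at 27.7% to 36.6%, and the 2 sets did not overlap for 6 of the 10 members. S100b was 160 to 566 CPM in the first set and 57.0 to 139 in the second. S100a4 was 39.6 to 96.0 against 1.93 to 12.9, S100a6 183 to 768 against 56.7 to 95.8, and S100a10 and S100a11 likewise higher at the low shares. S100a16 alone went the other way, with 55.9 to 83.7 CPM at the low and 95.3 to 176 at the high shares. So 5 members were higher at the low and 1 at the high shares, against 7.72% and 7.3% of all genes tested.

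S100β-GFP+ libraries showed a like picture with 3 libraries at 19.5% to 22.5% and 5 at 32.3% to 39.1%. S100a4 was 282 to 357 CPM in the first and 19.4 to 124 in the second, and S100a1, S100a6, S100a10 and S100a13 were also higher at the low shares without overlap, 5 of 10 members where 10.6% of all genes did so, and 0 members were higher at the high shares (6.78% of all genes). S100b (29.3 to 40.9 against 9.88 to 35.1 CPM) and S100a11 overlapped. Since the sets are small and apart, no correlation with the share is given for these cell types.

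**Figure D5:**
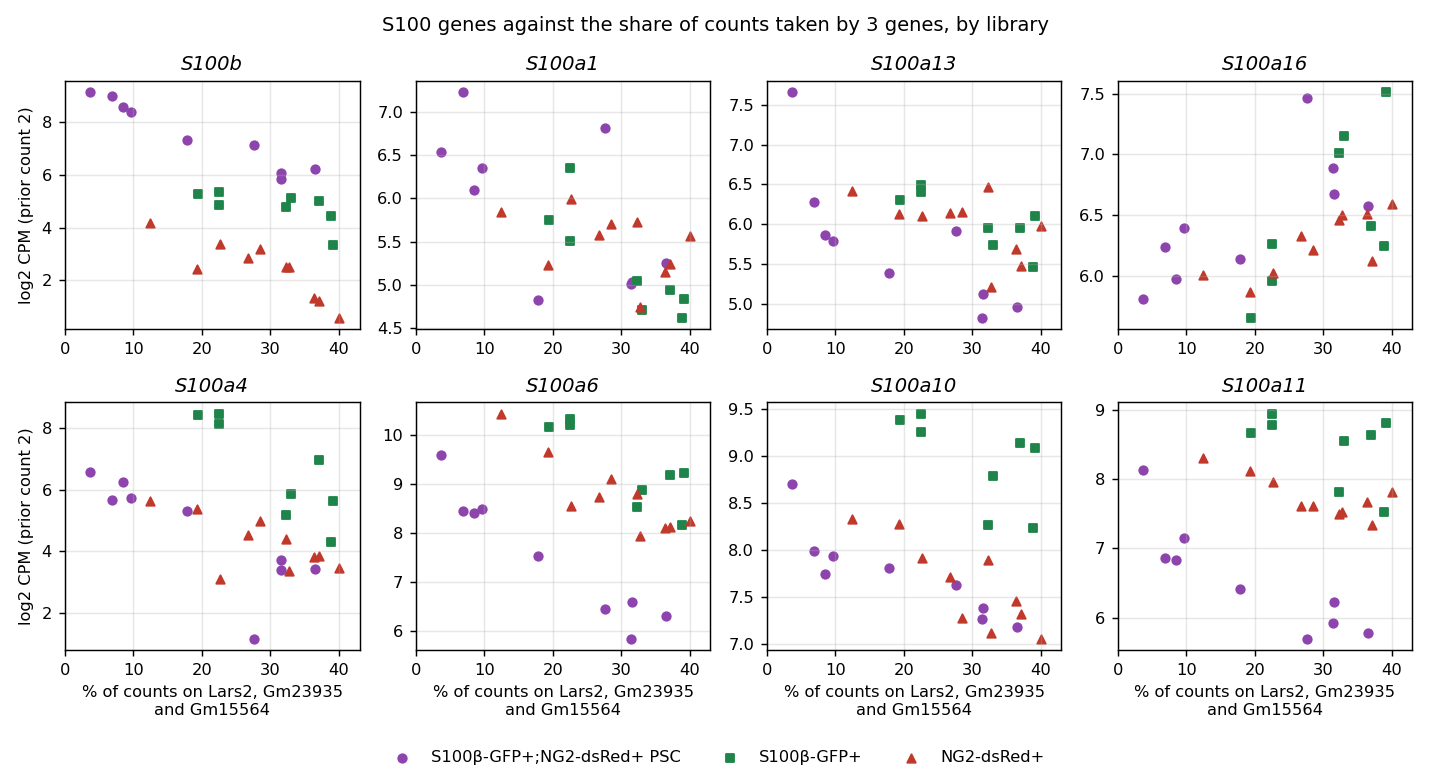
log2 CPM with a prior count of 2 (y axis) of 8 members against the percent of counts on Lars2, Gm23935 and Gm15564 (x axis), each point a library coloured by cell type. In PSCs S100b, S100a6 and S100a10 are lower and S100a16 higher in the 4 libraries with a share over 25% than in the other 5. S100b and S100a16 overlap between the 2 sets of S100β-GFP+ libraries, and S100b and S100a6 between those of NG2-dsRed+ libraries.

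Split at the same 25%, the 10 NG2-dsRed+ libraries had 2 members higher without overlap at the low shares (S100a10 and S100a11; 3.65% of all genes) and 1 at the high shares (S100a16; 3.76%). Among these libraries, whose shares have no such gap, the relation could be measured. The log2 CPM of S100b fell with the share (Pearson r = -0.86, permutation test, two-sided p = 0.00128, adjusted over 10 relations 0.00570, and Spearman rho = -0.79, p = 0.00888, adjusted 0.0295), and r was -0.94 without the 2 libraries farthest from the median share. S100a6 (r = -0.88, permutation p = 0.000920, adjusted 0.00570, rho = -0.77, p = 0.0118, r = -0.59 without 2 libraries) and S100a10 (r = -0.85, permutation p = 0.00171, adjusted 0.00570, rho = -0.84, p = 0.00379, r = -0.66 without 2 libraries) also fell. S100a16 rose (r = 0.78, permutation p = 0.00818, adjusted 0.0164, rho = 0.79, p = 0.00821, r = 0.63 without 2 libraries). S100a11 (r = -0.79, permutation p = 0.00685, adjusted 0.0164) had rho = -0.60 (p = 0.0743) and r = -0.37 without those libraries, so that its relation rests on them. S100a1, S100a4, S100a8, S100a9 and S100a13 had r between -0.66 and -0.30 with adjusted permutation p between 0.0623 and 0.405. Over all 15325 genes with a varying level in these libraries the median r was 0.07, and 46.2% of genes had r below 0. Genes whose principal transcript is under 1000 bases long, as those of 8 members are, had a median r of -0.36 (718 genes), and genes of the longest class had 0.19 (4349 genes). Genes are not independent replicates, and the part of transcript length in the relation was not tested.

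The known partners of the family were counted from fixed lists. Of 13 annexins and Ahnak, 11 were tested, and PSCs had 7 lower and 1 higher (Anxa6, by 0.57) than S100β-GFP+ cells and 6 lower and 0 higher than NG2-dsRed+ cells. Beside these counts, 24.1% of all genes tested were lower and 22.9% higher in the first comparison, and 23.1% lower and 20.9% higher in the second. The median log2 difference was -1.57 and -0.59, against 0.04 and 0.02 over all genes. Anxa1, the partner of S100a11, was lower in PSCs, at -5.14 ± 0.24 against the S100β-GFP+ group and -2.76 ± 0.21 against NG2-dsRed+ cells. Anxa2, the partner of S100a10, was lower too, at -1.70 ± 0.17 and -0.50 ± 0.16 (adjusted p = 0.0117). Anxa10 and Anxa13 had 0 counts in PSCs, with the limit of 0.0380 CPM given above.

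Of the intracellular targets, 16 of 21 were tested. PSCs had 10 lower and 1 higher than S100β-GFP+ cells and 7 lower and 1 higher than NG2-dsRed+ cells, with medians of -0.63 and -0.43. Over all genes 24.1% were lower and 22.9% higher in the first comparison, and 23.1% and 20.9% in the second. Myh9, the myosin heavy chain that S100A4 binds, was lower in PSCs, at -0.84 ± 0.26 (adjusted p = 0.00857) and -1.87 ± 0.25, as was Atp2a2, a SERCA pump, at -0.63 ± 0.18 (0.00485) and -1.98 ± 0.18. Ryr1, the ryanodine receptor of skeletal muscle, was the gene called higher in PSCs than in NG2-dsRed+ cells (2.08 ± 0.59, 0.00510), but its libraries overlapped, with 2.72 to 174 CPM in PSCs (median 8.87) and 1.73 to 17.6 in NG2-dsRed+ cells (7.59). Muscle fibre markers were also highest in a PSC library, at 1445 CPM in library 18, and their part was not tested. Cacybp, the partner of S100a6, differed by -0.26 ± 0.19 (0.286) from S100β-GFP+ and by 0.18 ± 0.18 (0.453) from NG2-dsRed+ cells. Trpv5, a calcium channel that S100A10 helps to place in the membrane, had 0 counts in PSCs, with the same limit of 0.0380 CPM.

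Among the 4 receptors and surface partners, PSCs had less Tlr4, a receptor of S100A8 and S100A9, at -3.49 ± 0.22 against S100β-GFP+ and -2.08 ± 0.21 against NG2-dsRed+ cells. PSCs had more Bsg than S100β-GFP+ cells, by 0.68 ± 0.17 (adjusted p = 0.00197), and Alcam was higher than in NG2-dsRed+ cells by 3.36 ± 0.51. Ager, which encodes RAGE, differed by 1.06 ± 0.68 (0.206) and -0.61 ± 0.60 (0.438). Of 20 other EF-hand proteins, 16 were tested, of which PSCs had 8 lower and 1 higher (Calm2, by 0.92) than S100β-GFP+ cells and 7 lower and 4 higher than NG2-dsRed+ cells, with medians of -0.42 and -0.09. The shares over all genes were, as above, 24.1% lower and 22.9% higher, and 23.1% lower and 20.9% higher. Vsnl1 had 0 counts in PSCs, again with a limit of 0.0380 CPM.

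Whether partners vary together was asked of 3 pairs known to bind each other, within each cell type, 9 relations in all. S100a8 and S100a9 did so in NG2-dsRed+ cells (n = 10, Pearson r = 0.97, permutation test, p = 5.00e-05, adjusted 0.000450, Spearman rho = 0.90, p = 0.000610), and r was 0.97 without the 2 libraries farthest from the median. In PSCs their r of 0.86 (n = 9, exact permutation p = 0.0225, adjusted 0.0675, rho = 0.41, exact p = 0.272) was -0.35 without 2 libraries and so rests on them, and in S100β-GFP+ cells r was 0.42 (n = 8, exact permutation p = 0.260, adjusted 0.292, rho = 0.49, exact p = 0.233). S100a10 and Anxa2 had r = -0.52 in PSCs (n = 9, exact permutation p = 0.145, adjusted 0.233, rho = -0.52, exact p = 0.162), 0.87 in S100β-GFP+ cells (n = 8, exact permutation p = 0.0218, adjusted 0.0675, rho = 0.52, exact p = 0.197, r = -0.16 without 2 libraries) and 0.46 in NG2-dsRed+ cells (n = 10, permutation p = 0.181, adjusted 0.233, rho = 0.41, p = 0.248). S100a11 and Anxa1 had r = -0.51, 0.54 and 0.29 in the same order (n = 9, 8 and 10, permutation p = 0.160, 0.173 and 0.422, adjusted 0.233, 0.233 and 0.422, rho = -0.35, 0.40 and 0.28 with p = 0.359, 0.327 and 0.427).

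Over all 27 libraries, which mix the 3 cell types, the genes most like each member in log2 CPM were named by Pearson r as a description. Nearest to S100b were Ctnnal1 (r = 0.95), Dbi (0.94) and Mocs2 (0.94), and Ctnnal1 had 257 ± 125 CPM in PSCs, 31.0 ± 9.12 among S100β-GFP+ cells and 9.82 ± 5.18 among NG2-dsRed+ cells. S100a1 was nearest to Chmp2a (0.84), Polr2k (0.83) and D8Ertd738e (0.83), and S100a13 to Atox1 (0.91), Txn1 (0.88) and Gm10073 (0.85). S100a4 was nearest to the ribosomal genes Rpsa (0.97) and Rack1 (0.93) and to Ssr4 (0.92). S100a6 was nearest to Lst1 (0.96), Crip1 (0.93) and the metallothionein Mt1 (0.91), and S100a10 to Maf (0.94), Cxcl2 (0.92) and Cd52 (0.92), genes known from leukocytes among others. For S100a11 the order was Ccdc88a (0.93), its own pseudogene Gm12854 (0.93) and Cdv3 (0.91), and for S100a16 Sept5 (0.83), Gm10524 (0.81) and Tmem59 (0.80). S100a8 and S100a9 were nearest to each other (0.92), and the next gene stood at 0.70 for S100a8 (Gm15910) and 0.73 for S100a9 (Wwc2).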

How the data were processed

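RNA was extracted from FACS-sorted PSCs, S100β-GFP+ cells and NG2-dsRed+ cells and sequenced after SMART-Seq v4 amplification. Trimming, HISAT2 alignment to GRCm38 and HTSeq counting per gene were done by the authors, according to the methods and the submitters' processing notes. The sources used here give no versions and no strand or overlap settings. The deposited values are raw counts per Ensembl gene, not normalized. Total counts ran from 5221655 to 9592875, and intervals and limits from counts cover counting error only.

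Groups were taken from the labels, and each replicate is 1 mouse. No 2 libraries of a cell type were identical or as close as counting error allows (chi-square over its degrees of freedom at least 8.2 in 109 pairs). Genes were filtered with filterByExpr (minimum count 10), scaled by TMM and tested in a single edgeR 4.0.16 quasi-likelihood fit of the 3 cell types (R 4.3.3), with Benjamini-Hochberg adjustment over 15330 genes and a threshold of 0.05. The log2 CPM used a prior count of 2. Permutation tests over 10 libraries drew 100000 resamples, and those over fewer were exact. The fit was first tested on simulated data. Alternatives were DESeq2 1.42.0, limma-voom (limma 3.58.1), other size factors, no filter, a fold of at least 2, only the groups compared, each library left out, S100β-GFP+ libraries 14, 17 and 22 left out, and a term for the percent of counts that fell on Gm15564, Gm23935 and Lars2. Fits split at a share of 25%, principal transcript lengths and a share relation scaled without these 3 genes were chosen after seeing the data.

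All members were named in full. The members, the partner and marker lists and the tests were chosen with earlier results of these data known. The genes most like a member were the 3 with the highest r over 27 libraries. An item withheld for evaluation is not reported here.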

Additional observations from a re-analysis of the deposited data

Results flagged for a closer look

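Each of the 30 combinations of a member and a cell type was searched for a library set far apart from the others. Dixon's criterion at 95% was applied to CPM, and 10 combinations were marked. Chance alone gives about 5% of groups a mark only where values are normally distributed. CPM of several members is skewed between libraries, so the 10 marks cannot be read against 5% and are a description only. Whether they hold on a log scale was not tested. In PSCs every mark fell on library 36, which had the lowest share of Gm15564, Gm23935 and Lars2 among its counts, 3.64%. It was the highest PSC library for S100a6 (768 CPM, the next at 359), S100a10 (417, the next at 254), S100a11 (279, the next at 142), S100a13 (202, the next at 77.2), S100a8 (11.7, the next at 2.72) and S100a9 (12.1, the next at 1.29). In NG2-dsRed+ cells, library 28, whose share of 12.5% was the lowest of that cell type, stood apart for S100a6 (1375 CPM, the next at 794) and S100b (17.8, the next at 10.1). NG2-dsRed+ library 2 stood apart for S100a8 (94.5 CPM, the next at 16.5) and S100a9 (202, the next at 34.5), and it also held the highest sum of neutrophil markers, 45.8 CPM. The part of the share and of neutrophils in these values was not tested.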

How the results depend on the processing

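No paired analysis was possible because the labels do not tell which libraries, if any, come from the same mouse, and no library number occurs in more than 1 cell type. The members called numbered 6 of 10, 3 of 9 and 5 of 9 (PSCs against S100β-GFP+, PSCs against NG2-dsRed+, S100β-GFP+ against NG2-dsRed+ cells), and 5 to 6, 2 to 4 and 4 to 5 with each library left out. In the second comparison 1 was called when only the groups compared were fitted, where S100a8 and S100a9 failed the filter on low counts, and 6 with a term for the share of Gm15564, Gm23935 and Lars2 among the counts. For S100β-GFP+ against NG2-dsRed+ cells, 3 were called among libraries with a share over 25%. The calls over all genes moved with the setting too. For PSCs against NG2-dsRed+ cells they numbered 6743, and 4996 to 8264 over the 9 alternatives other than leaving out each library. For S100β-GFP+ against NG2-dsRed+ cells that range was 3783 to 10586. Whether the member counts moved more than those of all genes was not tested. Over all genes, 7198 were called in the first and 5099 in the third comparison, 4728 and 3303 with a fold of at least 2 as well, and 16556 and 10586 with no filter. With each library left out the counts were 6825 to 7918, 6315 to 7412 and 4617 to 5940.

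Signs turned only for differences that had not passed the threshold. For PSCs against S100β-GFP+ cells, limma-voom gave -0.15 for S100a8 and -1.31 for S100a9. The share as a term gave -0.72 for S100a9 and 0.28 for S100a16, shares over 25% gave -0.17 for S100a9 and 0.0043 for S100a16, shares under 25% gave 0.057 for S100a13 and 0.17 for S100a16, and leaving out S100β-GFP+ libraries 14, 17 and 22 gave 0.21 for S100a16. For PSCs against NG2-dsRed+ cells, the share as a term gave -0.62, -0.25 and -0.59 for S100a4, S100a10 and S100a13, shares over 25% gave -0.95, -0.051 and -0.66, shares under 25% gave -0.079 for S100a10, and limma-voom gave -0.22 for S100a13. For S100β-GFP+ against NG2-dsRed+ cells, shares under 25% gave 0.21 and leaving out libraries 14, 17 and 22 gave 0.036 for S100a1, and shares over 25% gave -0.062 for S100a13. With each library left out, S100a9 ran from -1.10 to 1.87 and S100a16 from -0.23 to 0.074 in the first comparison, and S100a13 from -0.45 to 0.063 in the first and from -0.35 to 0.16 in the second. In the third, S100a13 ran from -0.0043 to 0.15. The cause was not tested.

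With principal transcript lengths, S100a6 was 1004 CPM per kb in S100β-GFP+ and 692 in NG2-dsRed+ cells, S100a10 was 328 in PSCs, 758 in S100β-GFP+ and 305 in NG2-dsRed+ cells, and S100a16 was 82.7 in PSCs and 68.8 in NG2-dsRed+ cells. With the total count as library size, r was 0.89 for S100a8 with S100a9 in PSCs (exact permutation test, adjusted p = 0.0225), 0.11 for S100a10 with Anxa2 in PSCs and 0.90 in S100β-GFP+ cells (0.0225). Depth limits S100a8, S100a9 and the other S100 genes, which had few counts in most libraries.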
